A study of Mus musculus with 12 samples.

Results

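The 9 genes described here, *Gm37261*, *Gm38357*, *Mgst2*, *Sfxn2*, *Tmem180*, *Rbm44*, *BC117090*, *Btnl7-ps* and *Gm17455*, were picked from the 47069 genes of a tibia RNA-seq count table. They were picked as genes whose levels appeared to fall into steps between mice, or to be on in some mice and off in others. They were chosen on the very values given below, so their levels are a description. Outcomes for them in fits over all genes are stated for completeness, and nothing is read from them. The RNA came from flushed tibia shafts of 12 male mice aged 8 weeks, 4 in each of 3 groups. WT mice carried normal *Col1a1* and *Sost*. Jrt;Sost-het mice were heterozygous for *Col1a1* Jrt, a dominant splice-site mutation that causes severe osteogenesis imperfecta, and had *Sost* inactivated on a single chromosome copy. The labels give the *Col1a1* genotype of these mice alone, and their *Sost* genotype is from the study's methods. Jrt;Sost-ko mice carried the same *Col1a1* mutation and lacked *Sost*, the gene of the Wnt inhibitor sclerostin. All 12 mice had a mixed background of FVB, the strain of the Jrt mutation, and C57BL6, the strain of the *Sost* knockout. The WT mice were bred in a parallel colony, and the Jrt colony was kept up by crossing mice of both Jrt groups, so that genotype and colony or family cannot be told apart in comparisons with WT.

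In mice of mixed background, each animal carries its own draw of the parental chromosomes. Where the parental copies of a gene differ in a promoter, a splice site, a retroviral insertion or a deletion, RNA from that gene can take a few separate levels among animals, and genes that lie close together on a chromosome are usually inherited together. The deposited data are counts of RNA. No sequence variant, parental strain or copy number was measured, so whether the steps described here follow inherited alleles was not tested.

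Each mouse had between 24366061 and 44418863 counts on genes. *Sost* was between 28.5 and 72.3 CPM (counts per gene scaled by the TMM-adjusted library size) in WT mice, between 26.8 and 70.4 in Jrt;Sost-het mice and between 0.326 and 1.28 in Jrt;Sost-ko mice, as the labels say. All 8 osteoblast and all 6 osteocyte markers were detected, with summed levels between 22605 and 69160 CPM and between 332 and 887 CPM. The samples also held other tissues in unequal amounts. Summed markers of skeletal muscle ran from 22.7 CPM in Jrt;Sost-ko mouse 4 to 21169 CPM in WT mouse 4, those of neutrophils from 15928 to 29602 CPM, and those of epidermis were 116 and 534 CPM in WT mice 3 and 4 against at most 2.65 CPM in every other mouse. In such bulk tissue, fewer cells of a type and less RNA per cell cannot be told apart.

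For each gene, the mice were ordered by log2 CPM and the largest step between neighbours in that order was taken to define an upper and a lower side. *Rbm44* had a step of 5.07 log2 units, and among the 17245 genes with enough counts to be tested over the 12 mice it was the only one whose largest step was that wide and left at least 2 mice on each side. The step was 2.49 in *Gm37261*, 2.24 in *BC117090*, 0.83 in *Gm38357* and 0.60 in *Sfxn2*. The others had smaller steps, 0.57 in *Btnl7-ps*, 0.42 in *Gm17455*, 0.37 in *Tmem180* and 0.28 in *Mgst2*. Counting every gene's largest step, single mice set apart included, a step at least as large was found in 0.0116% of tested genes for *Rbm44*, which is 2 genes with itself included, in 0.591% for *Gm37261*, 5.77% for *Gm38357* and 10.7% for *Sfxn2*. On the same count it was found in 11.6% for *Btnl7-ps*, 20% for *Gm17455*, 23.2% for *Tmem180* and 33.6% for *Mgst2*. *BC117090* had too few counts to be among the tested genes, of which 0.707% had a step as large. Steps as large as those of *Gm38357*, *Sfxn2*, *Btnl7-ps*, *Gm17455*, *Tmem180* and *Mgst2* were thus found in many other genes. The plot of CPM by mouse shows the 9 genes side by side.

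**Figure D1:**
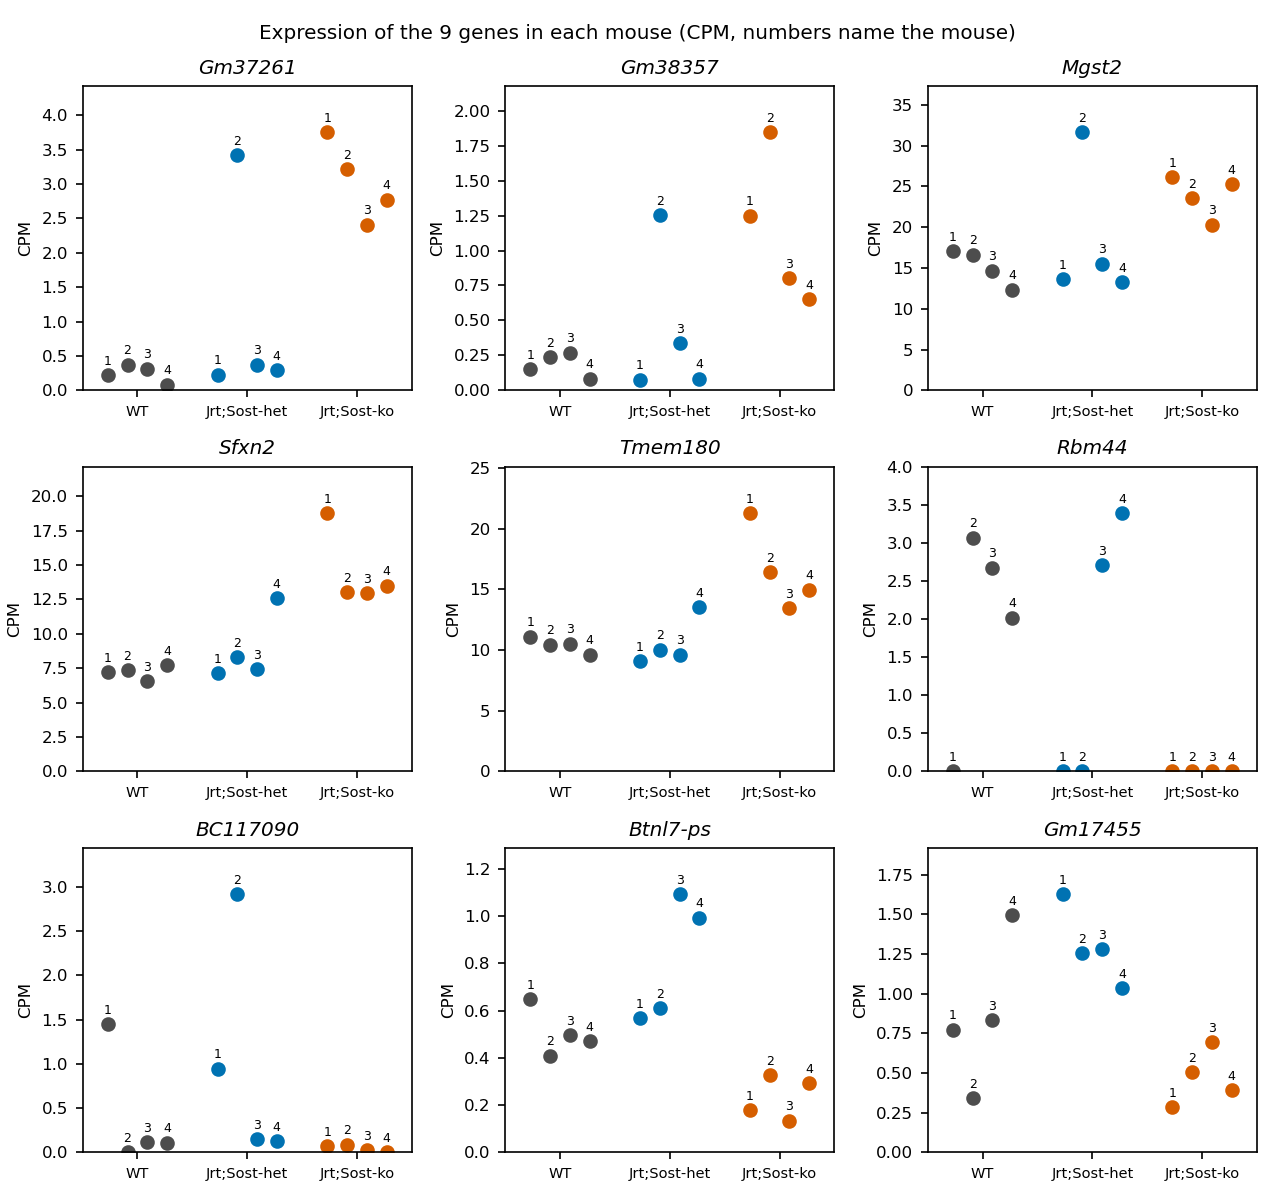
Expression of the 9 genes in each of the 12 mice, in CPM on a linear axis from 0, with 1 panel per gene, 1 point per mouse, the group on the horizontal axis and the mouse number above the point. *Gm37261* and *Gm38357* were high in Jrt;Sost-het mouse 2 and the 4 Jrt;Sost-ko mice, *Rbm44* was at 0 in 7 mice, and *BC117090* was high in WT mouse 1 and Jrt;Sost-het mice 1 and 2.

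*Gm37261*, *Gm38357* and *Mgst2* lie together on chromosome 3. *Mgst2* encodes microsomal glutathione S-transferase 2, a membrane enzyme that conjugates glutathione to lipid peroxides and electrophiles and can make leukotriene C4, and it is annotated on the plus strand at chr3:51660360-51682677 (ENSMUSG00000074604) (GRCm38). *Gm37261* is a transcript of a single exon at chr3:51672801-51673901 (ENSMUSG00000103527) on the same strand, wholly within an intron of *Mgst2*, with no base in an annotated *Mgst2* exon. *Gm38357*, also of a single exon, is at chr3:51231917-51234380 (ENSMUSG00000103313), inside *Noct* on the same strand and outside its exons, and 426 kb before *Mgst2*. Both are of a class of annotated transcripts whose existence awaits experimental support, and no function is known for either. RNA from *Gm37261* and unspliced RNA of *Mgst2* cannot be told apart in counts by gene, nor can RNA from *Gm38357* and unspliced RNA of *Noct*. The RefSeq promoter of *Mgst2*, the member of this group that has one in the table used, runs from 250 bases before to 50 bases after the RefSeq start. It is shown because all 3 genes had the same mice on top, with capitals marking a match to CCAAT and, further on, an overlapping pair of matches to TATAAA on opposite strands.

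Mgst2 promoter, chr3:51660929-51661228, plus strand: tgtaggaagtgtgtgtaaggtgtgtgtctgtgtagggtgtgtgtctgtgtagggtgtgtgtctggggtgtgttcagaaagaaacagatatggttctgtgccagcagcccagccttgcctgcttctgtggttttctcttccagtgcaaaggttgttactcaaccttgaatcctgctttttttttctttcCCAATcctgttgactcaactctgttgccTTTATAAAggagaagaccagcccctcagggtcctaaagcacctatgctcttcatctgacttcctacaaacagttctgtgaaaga

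Of 32851 promoter windows of this length in the table, 37.4% held CCAAT and 13.6% held TATAAA on either strand. The RefSeq start of *Mgst2* lies inside the gene span of the GENCODE annotation rather than at its first base. A match is no more than the letters, and binding was not measured.

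*Gm37261* had 9, 11, 14 and 3 reads in WT mice 1 to 4, 6, 101, 10 and 7 reads in Jrt;Sost-het mice 1 to 4, and 105, 108, 90 and 85 reads in Jrt;Sost-ko mice 1 to 4. As CPM, the 5 upper mice lay between 2.41 and 3.75 CPM and the 7 lower mice between 0.0831 and 0.376 CPM. The upper side thus held Jrt;Sost-het mouse 2 at 3.42 CPM beside all 4 Jrt;Sost-ko mice, and the other 3 Jrt;Sost-het mice lay among the WT mice. The group means were 0.250 ± 0.127 CPM in WT, 1.08 ± 1.56 CPM in Jrt;Sost-het and 3.04 ± 0.579 CPM in Jrt;Sost-ko mice (SD, n = 4 each), and the SD of the Jrt;Sost-het mice, larger than their mean, came from a single mouse.

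*Gm38357* had the same 5 mice on top at lower counts. It had 6, 7, 12 and 3 reads in the WT mice, 2, 37, 9 and 2 reads in the Jrt;Sost-het mice, and 35, 62, 30 and 20 reads in the Jrt;Sost-ko mice. The lowest upper mouse was Jrt;Sost-ko mouse 4 at 0.652 CPM and the highest lower mouse was Jrt;Sost-het mouse 3 at 0.339 CPM. The counts of these neighbouring mice were 20 and 9, so this step is less firm than that of *Gm37261*. *Noct*, the gene of the circadian protein nocturnin around it, lay between 27.2 and 43 CPM, and Jrt;Sost-het mouse 2, at 32.1 CPM, lay between the other Jrt;Sost-het mice, of which the highest was at 31.8 CPM, and the lowest WT mouse, at 32.9 CPM.

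*Mgst2* was measured far more deeply, with 320 to 933 reads per mouse. It was at 17.1, 16.6, 14.7 and 12.4 CPM in the WT mice, 13.6, 31.6, 15.5 and 13.2 CPM in the Jrt;Sost-het mice, and 26.1, 23.6, 20.3 and 25.3 CPM in the Jrt;Sost-ko mice. Jrt;Sost-het mouse 2 was again the exception in its group and here the highest of all 12 mice. Its largest step set that mouse apart from the rest, and the second largest step, of 0.25 log2 units between 20.3 and 17.1 CPM, put the same 5 mice above the other 7 as in *Gm37261* and *Gm38357*. This second step was examined after the values were seen.

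The intronic transcript changed more than its host. For each 100 reads on *Mgst2* there were between 0.673 and 2.43 reads on *Gm37261* in the 7 lower mice and between 10.8 and 14.4 reads in the 5 upper mice, so that the sides did not overlap in this ratio of counts either. Jrt;Sost-het mouse 2, with 10.8 reads, lay beside Jrt;Sost-ko mouse 4, with 11 reads. The ratio is of reads per gene, not per length.

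Of the 17244 other tested genes, 31 (0.18%) separated these 5 mice from the 7 others without overlap in either direction. Within 2 Mb of *Gm37261* the only such genes among 21 tested were *Gm38357* and *Mgst2*. Both were themselves picked on these levels, so nothing is read from their sharing of the division. None of the 9 tested genes that lie between *Gm38357* and *Mgst2* did so, among them *Elf2*, a transcription factor, *Setd7*, a lysine methyltransferase, *Naa15*, a subunit of an acetyltransferase of nascent proteins, and *Ndufc1*, a subunit of respiratory complex I. *Elf2* ran from 91 to 104 CPM over the 12 mice. *Maml3*, a Notch co-activator whose annotated span begins 3.23 kb beyond *Mgst2*, ran from 13 to 19.7 CPM, with Jrt;Sost-het mouse 2 at 15.4 CPM. Among genes on other chromosomes that separated the same mice, the widest steps were those of *Lypd6*, 0.22 log2 units in the opposite direction, *RP23-21F2.5*, 0.17 in the same direction, and *Gm42690*, 0.17 in the opposite direction, all well below that of *Gm37261*.

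Other genes of glutathione transfer and leukotriene synthesis were looked at as a list of 12, *Mgst2* included. All 12 were tested in each comparison of groups and none passed an adjusted p of 0.05 in edgeR, beside 0.00597% of all tested genes between the Jrt groups, 0.0% between Jrt;Sost-het and WT mice and 0.00583% between Jrt;Sost-ko and WT mice. At an unadjusted p below 0.05 there were 1, 0 and 1 of the 12. Among all tested genes there were 841 of 16739, 359 of 16775 and 668 of 17155. DESeq2 called *Mgst2* itself in the last comparison, among 18 of 21062 genes. *Mgst1* ran from 75.9 to 122 CPM and *Mgst3* from 67.7 to 102 CPM. *Alox5* and its activating protein *Alox5ap*, which begin leukotriene synthesis, ran from 75.4 to 135 CPM and from 133 to 228 CPM. *Ltc4s*, the leukotriene C4 synthase of myeloid cells, was at 6.88 CPM in Jrt;Sost-het mouse 2 and 5.95 CPM in Jrt;Sost-het mouse 3 and at most 4.95 CPM elsewhere. The list's median log2 difference between Jrt;Sost-ko and WT mice was -0.04, beside -0.00 over all tested genes.

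**Figure D2:**
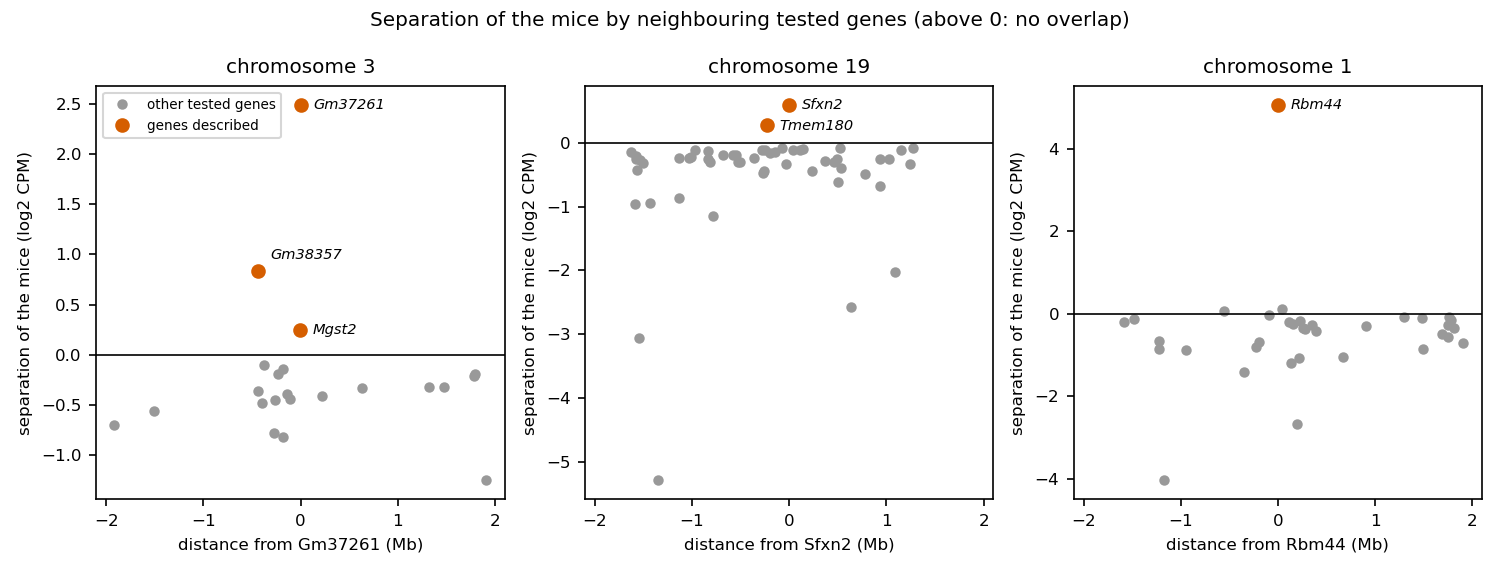
Separation of the mice by each tested gene whose midpoint lies within 2 Mb of that of *Gm37261*, *Sfxn2* or *Rbm44*, against the distance between midpoints in Mb. The text measures from the nearest ends of the genes instead, so its numbers within 2 Mb can be larger. The vertical axis is the log2 CPM step between the upper and the lower mice of *Gm37261*, *Sfxn2* or *Rbm44*, and it is positive where the sides do not overlap. Apart from the genes described, none of 19 genes on chromosome 3, none of 52 on chromosome 19 and 2 of 34 on chromosome 1 were above 0.

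*Sfxn2* and *Tmem180* form a second group of neighbours, on chromosome 19. *Sfxn2* encodes sideroflexin 2, a protein of the mitochondrial inner membrane, and lies at chr19:46573365-46598066 (ENSMUSG00000025036) on the plus strand. *Tmem180*, called *Mfsd13a* in newer annotations, encodes a membrane protein of the major facilitator family and lies at chr19:46341121-46375252 (ENSMUSG00000025227) on the plus strand, 198 kb before *Sfxn2*. Their RefSeq promoters are shown because the genes had the same 5 mice on top. Capitals mark CACGTG, and CCAAT or its reverse complement ATTGG.

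Sfxn2 promoter, chr19:46573115-46573414, plus strand: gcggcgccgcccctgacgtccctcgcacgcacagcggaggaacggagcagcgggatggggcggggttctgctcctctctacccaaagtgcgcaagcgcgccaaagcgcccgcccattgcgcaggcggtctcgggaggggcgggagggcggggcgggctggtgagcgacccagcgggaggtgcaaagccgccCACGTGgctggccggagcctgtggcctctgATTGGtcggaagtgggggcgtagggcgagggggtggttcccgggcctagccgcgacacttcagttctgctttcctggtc
Mfsd13a promoter, chr19:46356630-46356929, plus strand: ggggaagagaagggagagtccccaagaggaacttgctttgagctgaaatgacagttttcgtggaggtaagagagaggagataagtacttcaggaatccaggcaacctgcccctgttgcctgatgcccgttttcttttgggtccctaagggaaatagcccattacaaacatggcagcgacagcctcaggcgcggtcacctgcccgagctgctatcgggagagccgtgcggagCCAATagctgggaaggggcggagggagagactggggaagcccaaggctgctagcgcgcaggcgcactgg

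The *Sfxn2* window was 71.7% G and C and that of *Mfsd13a* 58%. CACGTG was in 7.15% of all promoter windows on either strand. The only motif found in both windows was CCAAT, which 37.4% of windows held. *Arl3*, a small GTPase gene on the minus strand, has its annotated start 0.167 kb before that of *Sfxn2*, so the *Sfxn2* window covers the start of both genes. The window of *Mfsd13a* lies inside the GENCODE gene span.

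*Sfxn2* was at 7.21, 7.35, 6.55 and 7.73 CPM in the WT mice and at 7.14, 8.30, 7.42 and 12.6 CPM in the Jrt;Sost-het mice. In the Jrt;Sost-ko mice it was at 18.7, 13, 12.9 and 13.5 CPM. Jrt;Sost-het mouse 4 lay just below the 3 lower Jrt;Sost-ko mice and well above the other 3 Jrt;Sost-het mice, which overlapped WT. Counts were between 189 and 525 reads per mouse. The group means were 7.21 ± 0.492 CPM in WT, 8.86 ± 2.53 CPM in Jrt;Sost-het and 14.6 ± 2.81 CPM in Jrt;Sost-ko mice (SD, n = 4 each).

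*Tmem180* followed *Sfxn2* with smaller steps. It was at 11.1, 10.4, 10.5 and 9.61 CPM in the WT mice, 9.07, 10, 9.60 and 13.5 CPM in the Jrt;Sost-het mice, and 21.2, 16.4, 13.4 and 15 CPM in the Jrt;Sost-ko mice. The same 5 mice lay above the other 7, by 0.27 log2 units between 13.4 and 11.1 CPM. This was its second largest step, examined after the values were seen. Its largest set Jrt;Sost-ko mouse 1 alone above the rest. That mouse was also the highest for *Sfxn2*.

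The step in these genes was shared by few others. Of 17244 tested genes, 36 (0.209%) separated the 5 upper mice of *Sfxn2* from the rest without overlap, and *Tmem180* was the only one of the 54 within 2 Mb. *Tmem180* was itself picked on these levels, so nothing is read from its sharing of the division. The 4 tested genes between them were *Actr1a* of the dynactin complex, *Arl3*, *Sufu*, an inhibitor of hedgehog signalling, and *Trim8*, a ubiquitin ligase, and none separated these mice. *Arl3*, whose start lies in the same promoter window as that of *Sfxn2*, was at 16.4 CPM in Jrt;Sost-het mouse 4 and between 13.7 and 16.9 CPM in the Jrt;Sost-ko mice, but WT mice 3 and 4 were at 13.8 and 17.2 CPM. Of the other genes with the same separation, the widest steps were those of *Lyrm7*, 0.10 log2 units, and *Gm10785*, 0.10 in the opposite direction. Jrt;Sost-ko mouse 1 alone was set apart, as by the largest step of *Tmem180*, in 2312 of 17244 other tested genes (13.4%). The widest of these steps was that of *Nr4a3*, an immediate early gene, at 20.9 CPM against at most 3.01 CPM in the others. Next came the interferon-stimulated *Ifi44*, at 20.7 CPM against at most 4.91, and *Trim30d*, at 5.79 CPM against at most 1.45. They were followed by *Gm30948*, in the opposite direction, at 0.0714 CPM against at least 0.443, and the heat shock gene *Hspa1a*, at 11.2 CPM against at most 2.96. The part of these genes in the high level of *Sfxn2* and *Tmem180* in that mouse was not tested. Without it, the upper side of *Sfxn2* held the same other mice.

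The other sideroflexins did not split in this way. *Sfxn1*, a serine transporter of the mitochondria, ran from 61.9 to 85.6 CPM, *Sfxn3* from 17.9 to 24.4, *Sfxn4* from 1.67 to 2.59 and *Sfxn5* from 18 to 24.4, so that the highest mouse was at most 1.55 times the lowest, against 2.86 times for *Sfxn2*. *Sfxn3*, also on chromosome 19, was between 21.7 and 24 CPM in the Jrt;Sost-het mice, with mouse 4 at 23.1 CPM. In the Jrt;Sost-ko mice it was between 17.9 and 21.5 CPM, so these groups did not overlap, as in 3.2% of all tested genes. The knockout mice were thus lower in *Sfxn3*, whereas they were higher in *Sfxn2*. All 5 sideroflexins were tested in each comparison and none passed an adjusted p of 0.05 in edgeR. Of all tested genes, 0.00597% passed between the Jrt groups, 0.0% between Jrt;Sost-het and WT mice and 0.00583% between Jrt;Sost-ko and WT mice. With so few genes passing at all, nothing is read from this. DESeq2 called *Sfxn2* itself between Jrt;Sost-ko and WT mice, among 18 of 21062 genes. At an unadjusted p below 0.05 there were 3 of the 5 between the Jrt groups, 0 between Jrt;Sost-het and WT mice and 1 between Jrt;Sost-ko and WT mice. Over all tested genes these numbers were 841 of 16739, 359 of 16775 and 668 of 17155. *Sfxn2*, picked on these levels, was among those counted between the Jrt groups and between Jrt;Sost-ko and WT mice.

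*Rbm44*, at chr1:91145089-91170795 (ENSMUSG00000070732) on the plus strand of chromosome 1, encodes an RNA-binding protein known from the intercellular bridges of germ cells. It was on in some mice and not detected in others. In the WT mice it had 0, 90, 119 and 73 reads, in the Jrt;Sost-het mice 0, 0, 72 and 82 reads, and in the Jrt;Sost-ko mice 0 reads each. The 5 mice with reads were at 3.08, 2.68 and 2.02 CPM (WT mice 2 to 4) and 2.71 and 3.39 CPM (Jrt;Sost-het mice 3 and 4). No mouse lay between. For a count of 0, a floor of 3 counts was set, which is between 0.0748 and 0.113 CPM in the 7 mice without reads. The exact Poisson interval of a count of 0 reached 3.69 counts at the 95% level, above this floor. The lowest mouse with reads was at least 17.8-fold higher than the floor in any mouse without, a fold that the limit of 3.69 would lower. This fold allows for the counting error of the counts of 0 only. It leaves out that of the 73 reads in WT mouse 4, the lowest mouse with reads, whose exact Poisson interval was 57.2 to 91.8 at the 95% level. None of the windows of 50 bases in its transcript occurred in another gene's transcripts.

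The state of *Rbm44* cut across WT and Jrt;Sost-het mice alike, 3 of 4 and 2 of 4 being on, and no Jrt;Sost-ko mouse was. Muscle markers summed to 155 CPM in WT mouse 2 and 19741 CPM in Jrt;Sost-het mouse 4, both on, and to 22.7 CPM in Jrt;Sost-ko mouse 4 and 8687 CPM in Jrt;Sost-ko mouse 3, both off. Epidermal markers were at 116 and 534 CPM in WT mice 3 and 4, both on, and at most 2.65 CPM in the other 3 mice that were on. Of 17244 other tested genes, 87 (0.505%) separated the same mice. Within 2 Mb these were 2 of 35. *Ramp1*, a receptor component for calcitonin gene-related peptide that begins 9.03 kb beyond *Rbm44*, was between 47.7 and 52.9 CPM in the mice that were on and between 39.5 and 44 CPM in the others. *Cops8*, a subunit of the COP9 signalosome, was between 49.2 and 54.4 CPM in the mice that were on and at most 46.8 CPM in the others. Both differences were far smaller than that of *Rbm44*, with steps of 0.12 and 0.07 log2 units.

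The widest steps elsewhere among genes with the division of *Rbm44* were those of *Ighv1-81*, an immunoglobulin heavy chain segment, and *Erdr1*, a gene whose copy in the annotation used is on chromosome Y. *Ighv1-81* was at most 1.20 CPM in the mice with *Rbm44* and at least 2.64 CPM in those without. *Erdr1* was at least 3.04 CPM in the mice with *Rbm44* and at most 2.19 CPM in those without. The list of genes of the intercellular bridge and of cell division had 6 members, *Rbm44* included, of which 5 were tested against Jrt;Sost-ko mice and all 6 between Jrt;Sost-het and WT mice. None passed an adjusted p of 0.05 in edgeR or DESeq2. Of all tested genes, edgeR passed 0.00597% between the Jrt groups, 0.0% between Jrt;Sost-het and WT mice and 0.00583% between Jrt;Sost-ko and WT mice. DESeq2 called 18 of 17272, 4 of 30263 and 18 of 21062 genes in the same order. Of the list, 0 had an unadjusted p below 0.05 in edgeR. Such an unadjusted p was found for 841 of 16739 tested genes between the Jrt groups. It was found for 359 of 16775 between Jrt;Sost-het and WT mice and 668 of 17155 between Jrt;Sost-ko and WT mice. *Tex14*, which germ cell bridges need, was between 0.0753 and 0.529 CPM, whereas *Cep55*, *Kif23*, *Racgap1* and *Anln*, which act in cytokinesis of dividing cells, were at least 22.1 CPM in every mouse and varied at most 1.51 times among mice.

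*BC117090* belongs to the stefin A cluster on chromosome 16, at chr16:36321665-36334332 (ENSMUSG00000079594) on the minus strand. Stefins A are small cytosolic inhibitors of cysteine cathepsins, and in mice the cluster holds several near-identical copies that are active in neutrophils. The closeness of the copies matters for the counts. Of the windows of 50 bases in the *BC117090* transcript, 33.7% also occurred in *BC100530* or *Stfa1*, and 13.5% of the windows of 100 bases also occurred in *BC100530*, so reads could be placed on the wrong copy and the level of each is uncertain. The longest run of bases shared by the coding sequences of *BC117090* and *BC100530* was 138 bases, from position 71 of 288 in the first and position 74 of 291 in the second, and its first 66 bases were also in *Stfa1*.

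Run shared by BC117090 and BC100530: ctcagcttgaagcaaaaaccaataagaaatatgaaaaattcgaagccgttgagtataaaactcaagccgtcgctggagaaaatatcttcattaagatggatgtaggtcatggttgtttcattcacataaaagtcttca

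In WT mice *BC117090* had 58, 0, 5 and 4 reads, in Jrt;Sost-het mice 25, 86, 4 and 3 reads, and in Jrt;Sost-ko mice 2, 3, 1 and 0 reads. The 3 upper mice were WT mouse 1 at 1.45 CPM, Jrt;Sost-het mouse 1 at 0.945 CPM and Jrt;Sost-het mouse 2 at 2.91 CPM. The other 9 mice were at most 0.151 CPM, and the 2 mice with no reads had floors of 0.103 and 0.0978 CPM. All 4 Jrt;Sost-ko mice were thus on the lower side, together with 3 WT and 2 Jrt;Sost-het mice.

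*BC100530*, which lies 25.1 kb beyond *BC117090*, had the same 3 mice on top, at 6.14 CPM in WT mouse 1, 2.5 CPM in Jrt;Sost-het mouse 1 and 8.98 CPM in Jrt;Sost-het mouse 2, against at most 2.22 CPM in the other 9. *Stfa1*, 36.3 kb before *BC117090*, had the same 3 mice at the bottom, at 1.72, 1.44 and 2.07 CPM against at least 2.45 CPM in the other 9. Neighbouring copies thus divided the same mice in opposite directions, by small steps of 0.16 log2 units in *BC100530* and 0.24 in *Stfa1*. In *BC100530* the nearest mice, Jrt;Sost-het mice 1 and 3, had 66 and 59 reads. In *Stfa1* they were Jrt;Sost-het mouse 2 and Jrt;Sost-ko mouse 4, with 61 and 75 reads, so counting error limits both divisions. The largest step put 2 mice on the upper side in *BC100530* and 10 in *Stfa1*. *C920006O11Rik*, on chromosome 9, had a wider step on this division, 0.70. *BC100530* and *Stfa1* were the only 2 of 40 tested genes within 2 Mb to divide the 3 mice, where 290 of all 17245 tested genes (1.68%) did. *Stfa2* was highest in 2 of the 3 mice, at 2.62 CPM in WT mouse 1 and 4.54 CPM in Jrt;Sost-het mouse 2, but at 0.794 CPM, its lowest, in Jrt;Sost-het mouse 1. *Stfa2l1*, *Stfa3* and *Gm5483* did not separate the 3 mice, and *Gm4758* had no read in any mouse.

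Neutrophil markers summed to 25108 CPM in WT mouse 1, 18802 CPM in Jrt;Sost-het mouse 1 and 23549 CPM in Jrt;Sost-het mouse 2, within the range of 15928 to 29602 CPM of the other 9 mice. Of the 13 genes in the list of stefins and cystatins, 8 had enough counts to be tested in edgeR, and none passed an adjusted p of 0.05 in any comparison. An unadjusted p below 0.05 was found for 2 of the 8 between the Jrt groups, 0 between Jrt;Sost-het and WT mice and 3 between Jrt;Sost-ko and WT mice. It was found for 841 of 16739, 359 of 16775 and 668 of 17155 of all tested genes, of which 1, 0 and 1 passed the adjusted p. DESeq2, which also tested *BC117090*, called that gene between the Jrt groups, among 18 of 17272 genes. The median log2 difference of the 8 was -0.38 between the 2 Jrt groups (knockout minus heterozygous) and -0.43 for Jrt;Sost-ko against WT mice, beside 0.00 and -0.00 over all tested genes. The cystatins outside the cluster varied little, *Cstb* between 26.5 and 33.9 CPM and *Cst3* between 361 and 520 CPM.

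**Figure D3:**
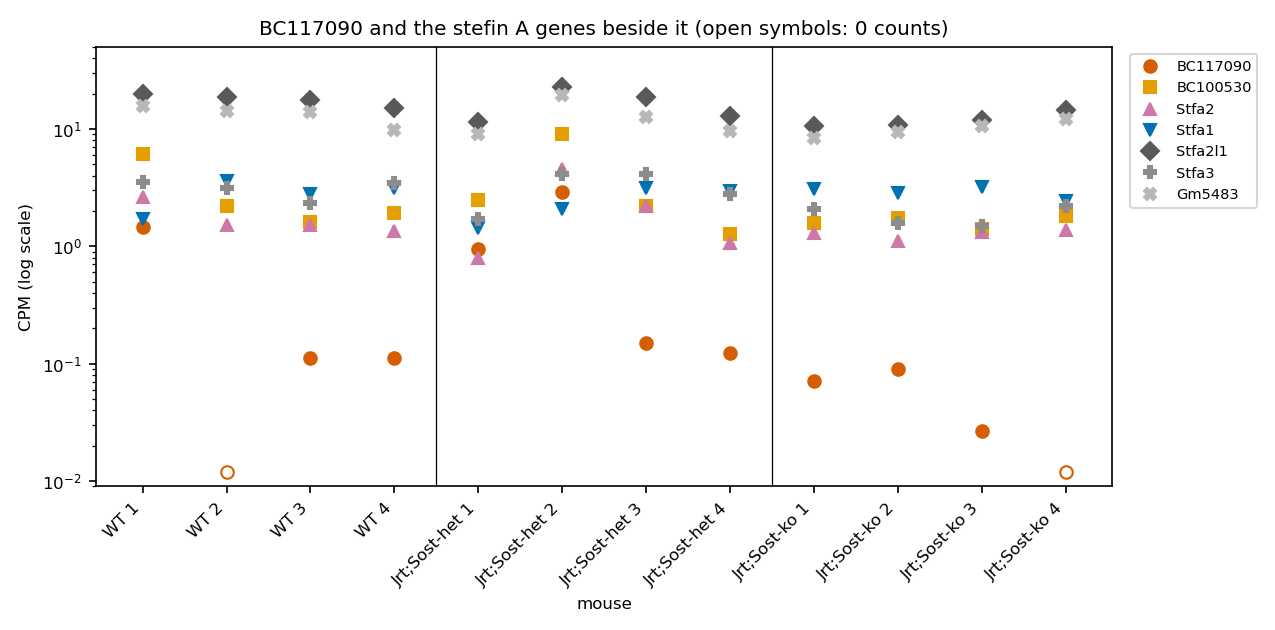
CPM of *BC117090* and 6 stefin A genes beside it in each mouse, on a log axis. Open circles stand for no reads and are drawn at the bottom. WT mouse 1 and Jrt;Sost-het mice 1 and 2 had the highest *BC117090* and *BC100530* and the lowest *Stfa1*, while *Stfa2l1*, *Stfa3* and *Gm5483* varied without this division.

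The last 2 genes had low counts and no clear step. *Btnl7-ps*, an unprocessed pseudogene of the butyrophilin-like family, a group related to co-stimulatory molecules of T cells, lies in the major histocompatibility region at chr17:34532877-34547651 (ENSMUSG00000061728) on the minus strand. It had 26, 12, 22 and 17 reads in the WT mice, 15, 18, 29 and 24 reads in the Jrt;Sost-het mice and 5, 11, 5 and 9 reads in the Jrt;Sost-ko mice. The 4 Jrt;Sost-ko mice, between 0.134 and 0.327 CPM, lay below the 8 others, between 0.410 and 1.09 CPM. The exact Poisson interval of a count of 11, the highest in a Jrt;Sost-ko mouse, was 5.49 to 19.7 at the 95% level and that of a count of 12, the lowest elsewhere, was 6.20 to 21, so the nearest mice were within counting error of each other. Its largest step put Jrt;Sost-het mice 3 and 4 above the rest, but with a step nearly as large, 0.56, between Jrt;Sost-ko mice 1 and 3 and all others. Of its windows of 50 bases, 11.2% also occurred in *Btnl4*, *Btnl5-ps* or *Btnl6*, so part of its reads could come from these.

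Of 10 butyrophilin genes listed, 7 were tested and none passed an adjusted p of 0.05 in edgeR or DESeq2 in any comparison. Of all tested genes, edgeR passed 0.00597% between the Jrt groups, 0.0% between Jrt;Sost-het and WT mice and 0.00583% between Jrt;Sost-ko and WT mice. DESeq2 called 18 of 17272, 4 of 30263 and 18 of 21062 genes in the same order. An unadjusted p below 0.05 in edgeR was found for 1 between the Jrt groups, 1 between Jrt;Sost-het and WT mice and 2 between Jrt;Sost-ko and WT mice. Beside these stand 841 of 16739, 359 of 16775 and 668 of 17155 of all tested genes. *Btnl6*, 15.5 kb before *Btnl7-ps*, was between 1.70 and 4.32 CPM, lowest in Jrt;Sost-het mouse 4, where *Btnl7-ps* was second highest. *Btnl4* was also lowest in that mouse, at 0.496 CPM against a median of 1.36. *Btnl9*, on chromosome 11, was between 26.1 and 34.1 CPM. The list's median log2 difference between Jrt;Sost-ko and WT mice was -0.34, beside -0.00 over all tested genes.

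*Gm17455*, a predicted protein-coding gene at chr10:60399726-60403559 (ENSMUSG00000090439) on the plus strand, lies within *Cdh23*, the gene of a cadherin of hair cells, which is read from the minus strand, and shares no exonic base with it. Since the strand setting of the counting is not given in the sources used here, RNA from the strands cannot be told apart. *Gm17455* had 31, 10, 37 and 54 reads in the WT mice, 43, 37, 34 and 25 reads in the Jrt;Sost-het mice and 8, 17, 26 and 12 reads in the Jrt;Sost-ko mice. The Jrt;Sost-het mice were between 1.03 and 1.63 CPM and the Jrt;Sost-ko mice between 0.286 and 0.695 CPM, without overlap, while the WT mice spread from 0.342 to 1.5 CPM over both. *Cdh23* was between 2.64 and 4.63 CPM. The largest step of *Gm17455* put WT mouse 2 and Jrt;Sost-ko mice 1, 2 and 4 below the rest, as did 265 of 17244 other tested genes (1.54%) in either direction. The genes with the widest steps on this division were *Htra4*, 1.54 log2 units, *Tmem196*, 1.32, *Msmp*, 1.22, and *Prg4*, 1.21, the gene of the joint lubricant lubricin. *Prg4* was at most 163 CPM in the 4 lower mice and at least 377 CPM in the others. Muscle markers summed to 155, 6749, 1537 and 22.7 CPM in the 4 lower mice, and to between 1682 and 21169 CPM in the others. The part of unequal tissue content was not tested. The RefSeq promoter of *Gm17455* held none of the motifs above.

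The states of the 4 loci with a division shared by neighbouring genes picked here or a clear step, those of chromosomes 3, 19, 1 and 16, gave 5 combinations over the 12 mice. All 4 Jrt;Sost-ko mice had the same one, upper on chromosomes 3 and 19 and lower for *Rbm44* and *BC117090*. WT mice 2 to 4 shared theirs with Jrt;Sost-het mouse 3, which was upper for *Rbm44* alone, and WT mouse 1 shared its own with Jrt;Sost-het mouse 1, upper for *BC117090* alone. Jrt;Sost-het mouse 2 was upper on chromosome 3 and for *BC117090*, and Jrt;Sost-het mouse 4 was upper on chromosome 19 and for *Rbm44*. The 4 Jrt;Sost-het mice thus had 4 different combinations, and no mouse was upper for both *Rbm44* and *BC117090*. With the largest step of each gene, WT mouse 1 and Jrt;Sost-het mouse 1 were on the same side in all 9 genes, as were WT mice 3 and 4 and Jrt;Sost-ko mice 2 and 4.

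**Figure D4:**
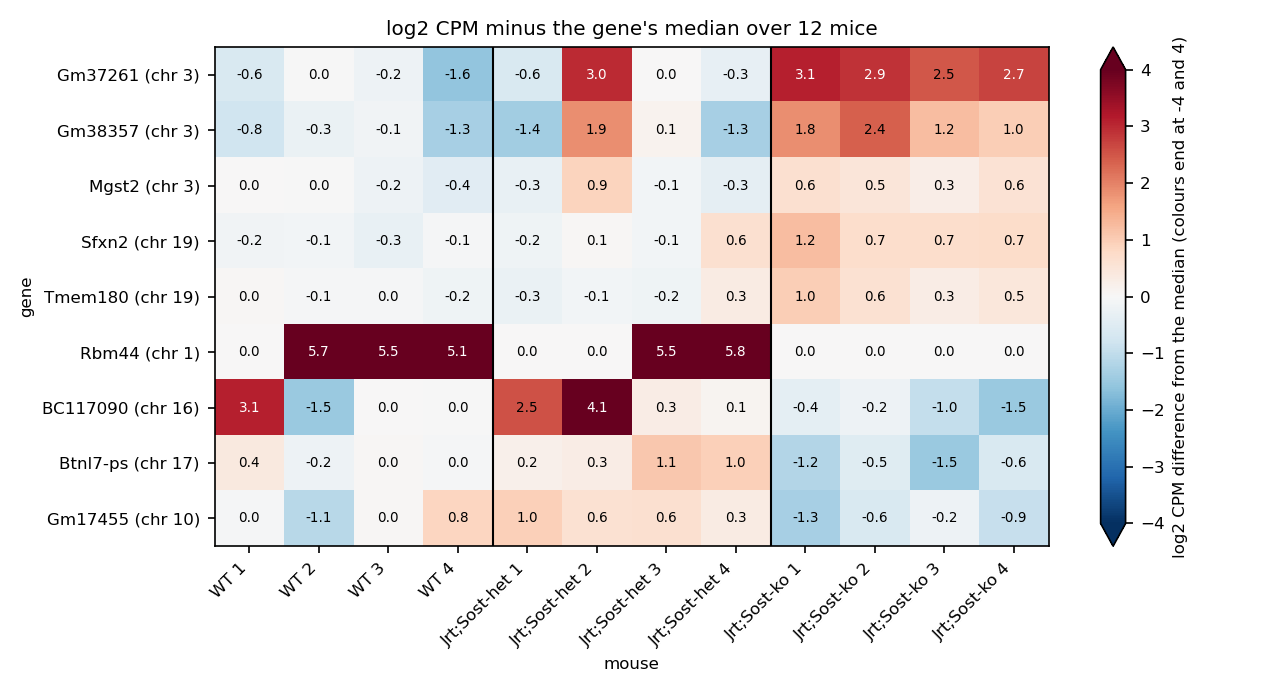
Log2 CPM of the 9 genes in the 12 mice, each gene less its own median over the mice, with the value in each cell and black lines between the groups. Colours end at -4 and 4, which the *Rbm44* values of 5.1 to 5.8 exceed. The Jrt;Sost-ko mice had like values of the genes on chromosomes 3 and 19, whereas the Jrt;Sost-het mice differed from each other.

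The 9 genes were also compared between the groups. When Jrt;Sost-ko mice were set against Jrt;Sost-het mice, 7 of the 9 genes had enough counts and none passed an adjusted p of 0.05 in edgeR, where 0.00597% of all tested genes did, the single gene being *Sost*. The groups did not overlap in 3 of the 7, *Sfxn2*, *Btnl7-ps* and *Gm17455*, where this held for 3.2% of tested genes, and nothing is read from this count since the values chose the genes. The log2 difference was 0.71 in *Sfxn2*, 0.64 in *Tmem180*, -1.79 in *Btnl7-ps* and -1.44 in *Gm17455*, with standard errors of 0.208, 0.177, 0.369 and 0.292. For *Gm37261* it was 1.47 with a standard error of 0.768, in which Jrt;Sost-het mouse 2 has a large part. At an unadjusted p below 0.05 there were 4 of the 7, where 841 of 16739 tested genes had such a p. DESeq2 called 18 of 17272 genes and 1 of the 9, *BC117090*, which is not read as support either.

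Between Jrt;Sost-ko and WT mice, 7 of the 9 genes were tested and none passed, beside 0.00583% of all genes. The groups did not overlap in 6 of them, where 2.4% of all tested genes had no overlap, and nothing is read from this count either, since the genes were picked on these levels. These were the 3 genes of chromosome 3, the 2 of chromosome 19 and *Btnl7-ps*. The log2 difference was 3.60 in *Gm37261*, 2.6 in *Gm38357*, 1.02 in *Sfxn2*, 0.67 in *Tmem180* and 0.66 in *Mgst2*, with standard errors of 0.38, 0.455, 0.144, 0.144 and 0.123. At an unadjusted p below 0.05 there were 6 of the 7, where 668 of 17155 tested genes had such a p. DESeq2 called the 5 genes just named, among 18 of 21062 genes. These outcomes rest on the values that picked the genes and are no evidence of a difference between the groups. Between Jrt;Sost-het and WT mice, none of 6 tested genes passed, beside 0.0% of all genes, and no gene of the 9 separated the groups, where 1.54% of tested genes did. In that comparison edgeR called 0 genes, 359 had an unadjusted p below 0.05, and DESeq2 called 4. The comparisons with Jrt;Sost-ko mice share those 4 mice. *Rbm44* and *BC117090* were left out of both by the filter on low counts, although they had the widest steps with *Gm37261*.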

How the data were processed

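Tibia shaft RNA from 12 mice was sequenced after poly(A) selection. STAR was used by the authors for alignment to GRCm38, and the deposited matrix gives raw counts per gene, without normalization. The counting tool, its strand setting and the annotation release are not given in the sources used here. The count files of single mice were left out, as were 96 columns of values by mouse in the comparison tables. Those tables also hold the authors' fold changes and p-values, which were neither printed nor compared.

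CPM and log2 CPM (prior count 2) were computed from the counts with TMM over 12 libraries. The 8 mice of each pair of groups were fitted with edgeR 4.0.16 in R 4.3.3 (glmQLFTest after filterByExpr and glmQLFit), with Benjamini-Hochberg adjustment over all tested genes and a threshold of 0.05. DESeq2 1.42.0 was an alternative. The edgeR fit and the step finder were tested on simulated data. A gene separated the same mice where every mouse on 1 side lay above every mouse on the other. Positions and transcripts are from GENCODE M21, in which 46488 of 47069 genes were found. Promoters are from RefSeq (GRCm38.p6), and 4 of the 9 genes matched. Windows of 50 and 100 bases were compared with all transcripts. Depth was between 24366061 and 44418863 counts per mouse, and intervals and floors cover counting error only.

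The 9 genes and the gene lists were chosen with earlier results of these data known. Besides the 9 genes, the genes named are up to 5 with the widest step on the same division, the tested neighbours and overlapping genes, and members of the lists. *Elf2* and *Maml3*, *Arl3*, *Btnl4* and *Btnl9* were given as examples after their values were seen. Mouse numbers follow the order of the labels within a group and do not link mice of different groups.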

Additional observations from a re-analysis of the deposited data

Results flagged for a closer look

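Single mice that stood apart within their group of 4 were looked for in 53 groups of values over 18 genes, by the gap between the highest or lowest mouse and its neighbour divided by the range of the 4 values, with Dixon's critical value at the 95% level. Chance alone would mark about 2.65 of 53 groups, but *Gm37261*, *Sfxn2* and *Rbm44* were picked because mice stood apart in them, so that figure does not hold for them and their marks restate how they were picked. In *Gm37261*, Jrt;Sost-het mouse 2 lay above its group with a gap of 0.832 of the range. In *Sfxn2*, Jrt;Sost-ko mouse 1 was the high mouse, with a gap of 0.886. In *Rbm44*, WT mouse 1, with no reads, lay below the other WT mice by 0.896 of the range. In *Stfa2*, a neighbour of *BC117090*, WT mouse 1 was the high mouse, with a gap of 0.842. The part of any one cause in these values was not tested.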

How the results depend on the processing

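No paired analysis was possible because the labels give no replicate numbers shared between the groups. The sides of the largest step were the same under 4 other settings (prior counts of 0.5 and 5, DESeq2 size factors, total counts) in every gene except *Btnl7-ps*, in which 10 mice were on the upper side with a prior count of 0.5 and 10 with total counts. Leaving out each of 12 mice in turn kept the sides each time in *Gm37261*, *Sfxn2*, *Rbm44* and *BC117090*. The number of upper mice ranged from 3 (without Jrt;Sost-ko mouse 3) to 8 (without WT mouse 1) in *Gm38357*, 1 to 5 in *Mgst2* (5 without WT mouse 1), 1 to 4 in *Tmem180* (4 without Jrt;Sost-ko mouse 1), 1 to 10 in *Btnl7-ps* (10 without Jrt;Sost-ko mouse 1) and 4 (without Jrt;Sost-het mouse 4) to 9 (without Jrt;Sost-ko mouse 4) in *Gm17455*. With no filter on low counts, more genes were searched, and the number with the same division was 57 for *Gm37261*, 57 for *Gm38357*, 3559 for *Mgst2* (11 within 2 Mb), 3742 for *Tmem180* (19 within 2 Mb) and 741 for *Btnl7-ps*. With the second largest step, added after the data were seen, it was 31 for *Mgst2* (2 within 2 Mb) and 36 for *Tmem180* (1 within 2 Mb). Within 5 Mb the number was 22 for *Tmem180*, 5 for *Rbm44*, 9 for *Btnl7-ps* and 2 for *Gm17455*, and within 1 Mb it was 0 for *Btnl7-ps* and 0 for *Gm17455*. DESeq2 called 18 genes between the 2 Jrt groups, 4 between Jrt;Sost-het and WT mice and 18 between Jrt;Sost-ko and WT mice, and edgeR without a filter called 2 in the last. Leaving out each mouse in turn, edgeR called 0 to 3 genes between the Jrt groups (0 when knockout mouse 1, 3 or 4 was left out, 2 when heterozygous mouse 2 was and 3 when heterozygous mouse 3 was) and 0 to 2 for Jrt;Sost-ko against WT mice (0 without WT mouse 1 or 3 or knockout mouse 1, 3 or 4, and 2 without WT mouse 4). *Gm37261* was among the genes edgeR called for Jrt;Sost-ko against WT mice, with adjusted p of 0.0411 without a filter and 0.0256 without WT mouse 4. Between the Jrt groups edgeR called it without heterozygous mouse 2, with an adjusted p of 0.0339. Its outcome thus changed with the setting, and nothing is read from it since the gene was picked on these levels. The causes of these changes were not tested. *Gm38357*, *BC117090*, *Btnl7-ps* and *Gm17455* rest on fewer than 100 reads per mouse, where counting error limits how finely mice can be ordered.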
